A study of Mus musculus with 6 samples.

Results

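The 50 genes described here act in the S and G2/M phases of the cell cycle, and their transcripts are widely used as a readout of proliferation. They were taken by gene symbol from the deposited table of estimated counts, and all 50 were among its 16254 genes. By the phase in which each is best known to act, 26 were S phase genes and 24 were G2/M phase genes. All 50 also passed the filter on low counts, which left 13498 genes for testing.

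RNA was sequenced from mouse eosinophils grown from the bone marrow of C57BL/6 mice aged 6 to 12 weeks. The marrow cells had received FLT3 ligand and stem cell factor and then IL-5, and were taken as eosinophils on day 12 of culture. In 3 samples (EV-treated), extracellular vesicles (EVs) from restimulated, activated TH2 cells were added at 5e9 EVs per ml for 24 h, and in the other 3 (sham-treated), medium that had met no T cell but had gone through the same purification was added for the same time. The titles call the samples of a group biological replicates but do not say whether they came from separate animals or cultures. The p-values thus measure only the spread between these samples.

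The libraries held between 23697620 and 37874426 estimated counts, and no member fell below 67 counts in any library. Across all genes tested with edgeR, 12.1% were called higher and 11.6% lower with EVs, at an adjusted p under 0.01. Of 11 eosinophil markers, all were detected in every library, and 7 were higher in EV-treated than in sham-treated eosinophils. The list summed to between 939672 and 1184270 normalized counts in the sham-treated libraries and to between 1339940 and 1497830 in the EV-treated ones. Haematopoietic progenitor markers summed to between 8770.0 and 10009 normalized counts in sham-treated and to between 11109 and 12460.0 in EV-treated libraries. Of 7 tested, 1 was higher (Gata2) and 1 lower (Cd34), and Elane was not in the table used here. The higher sum rested on Gata2, without which the list summed to between 6526 and 7397 in sham-treated and to between 6161 and 6975 in EV-treated libraries. Macrophage and monocyte markers had 7 of 11 lower and 2 higher. Their sum ranged from 54985 to 68800.1 in sham-treated and from 68179 to 74209 in EV-treated libraries, a direction set by Adgre1 and Ly6c2. The other 9 summed to between 22710.4 and 37581 in sham-treated and to between 8683 and 11885 in EV-treated libraries. Adgre1, the first listed of these markers, had a log2 fold change of 0.62. Cx3cr1, at a mean of 168 normalized counts in sham-treated libraries, had 0 counts in all 3 EV-treated ones. The part of these markers in the results was not tested. Of the tested markers of other cell types, 1 rose and 5 fell of 7 for neutrophils, 4 of 5 rose for mast cells and basophils, 1 of 2 fell for T cells, 1 of 2 rose for erythroid cells, 1 of 4 fell for stromal cells, and none of 3 for B cells was called by edgeR. In bulk RNA, fewer cells of a type and less RNA per cell cannot be told apart, and neither can the share of cells in cycle and the level per cycling cell.

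Before a cell copies its DNA, origins are licensed by Cdc6, Cdt1 and the Mcm2-7 helicase, and cyclin-dependent kinases with Cdc45 and the GINS complex then fire them. E2F factors drive the S phase genes from the G1/S transition, and the later G2/M genes are switched on through promoter elements called CHR (cell cycle genes homology region) and CCAAT boxes, bound by the DREAM, B-Myb/FoxM1 and NF-Y proteins. Mature eosinophils are regarded as postmitotic cells, and in marrow cultures the cell cycle is a property of their dividing precursors.

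Promoter sequence was a feature of these genes that the choice did not use. RefSeq promoters (GRCm38.p6) were matched for 41 of the 50 genes, and the 250 bases before the annotated start were searched on both strands for the E2F words GCGGGAA and GCGCGAA, the CHR word TTTGAA and the CCAAT box CCAAT. An E2F word was present in 26.8% of the 41 promoters, against 5.02% of all 27025 promoters. The CHR word was present in 26.8% against 16.3%, and CCAAT in 73.2% against 34.5%. The phases differed in what they held, with E2F words in 43.5% of 23 S phase and 5.56% of 18 G2/M phase promoters, CHR words in 13.0% and 44.4%, and CCAAT in 60.9% and 88.9%. In 1 promoter, that of Prim1, matches of different motifs overlapped. A match is a string of letters and not a measured binding site.

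The last 150 bases before the start are shown for the 7 genes whose level changed, and for Mki67, Cdk1 and Mcm6, which did not pass the test and hold typical G2/M or S phase words. Capitals mark the motif matches, and each sequence is written 5′ to 3′ on the strand of its gene. The Cdt1 window is chr8:122567865-122568014, forward strand. The Pcna window is chr2:132253181-132253330, reverse strand. The Rrm2 window is chr12:24708104-24708253, forward strand. The Cdk2 window is chr10:128705052-128705201, reverse strand. The E2f8 window is chr7:48881597-48881746, reverse strand. The Cdc20 window is chr4:118437344-118437493, reverse strand. The Top2a window is chr11:99024190-99024339, reverse strand. The Mki67 window is chr7:135716380-135716529, reverse strand. The Cdk1 window is chr10:69352913-69353062, reverse strand. The Mcm6 window is chr1:128359706-128359855, reverse strand.
Cdt1: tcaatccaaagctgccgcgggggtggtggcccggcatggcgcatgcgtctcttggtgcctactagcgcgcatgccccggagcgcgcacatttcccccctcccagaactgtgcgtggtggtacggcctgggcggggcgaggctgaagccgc
Pcna: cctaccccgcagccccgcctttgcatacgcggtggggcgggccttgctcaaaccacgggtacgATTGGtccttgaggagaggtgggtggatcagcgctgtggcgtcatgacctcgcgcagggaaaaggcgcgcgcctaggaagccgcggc
Rrm2: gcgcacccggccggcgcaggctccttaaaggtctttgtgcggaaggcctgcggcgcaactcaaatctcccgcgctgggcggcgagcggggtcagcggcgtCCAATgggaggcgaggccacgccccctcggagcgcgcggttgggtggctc
Cdk2: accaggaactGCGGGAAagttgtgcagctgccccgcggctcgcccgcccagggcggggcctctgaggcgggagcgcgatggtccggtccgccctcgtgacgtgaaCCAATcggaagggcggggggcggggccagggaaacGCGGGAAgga
E2f8: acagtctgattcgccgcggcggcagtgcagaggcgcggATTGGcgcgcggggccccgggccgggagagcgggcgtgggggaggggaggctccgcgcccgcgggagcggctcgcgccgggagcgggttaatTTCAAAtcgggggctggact
Cdc20: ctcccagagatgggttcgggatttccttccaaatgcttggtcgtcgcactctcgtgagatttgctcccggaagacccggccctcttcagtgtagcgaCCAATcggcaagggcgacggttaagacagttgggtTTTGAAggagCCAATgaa
Top2a: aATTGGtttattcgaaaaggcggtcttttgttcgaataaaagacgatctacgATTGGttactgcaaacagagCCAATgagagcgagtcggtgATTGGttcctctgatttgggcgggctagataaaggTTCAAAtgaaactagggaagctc
Mki67: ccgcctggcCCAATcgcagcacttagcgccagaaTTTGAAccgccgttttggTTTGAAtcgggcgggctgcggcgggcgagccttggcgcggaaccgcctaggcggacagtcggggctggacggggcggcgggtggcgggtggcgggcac
Cdk1: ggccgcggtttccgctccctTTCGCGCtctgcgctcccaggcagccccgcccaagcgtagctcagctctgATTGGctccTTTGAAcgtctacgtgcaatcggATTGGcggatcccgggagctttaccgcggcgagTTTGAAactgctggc
Mcm6: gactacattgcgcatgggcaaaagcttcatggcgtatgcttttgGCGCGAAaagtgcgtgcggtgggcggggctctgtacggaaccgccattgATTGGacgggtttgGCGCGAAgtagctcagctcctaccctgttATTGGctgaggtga
Within these windows Cdk2 and Mcm6 each held 2 E2F words, Cdk1 held CHR and CCAAT words beside 1 E2F word, and Cdc20, E2f8 and Top2a had a CHR word close to the start, while Cdt1 held none of the words.

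To ask whether activated TH2-cell EVs altered the proliferation program of eosinophils, EV- and sham-treated cells were compared gene by gene. Genes moved in both directions, and most did not pass the test. Rrm2, Cdk2, E2f8 and Top2a were higher in EV-treated eosinophils, Cdt1, Pcna and Cdc20 were lower, and the other 43 genes did not pass the threshold of edgeR's quasi-likelihood test at a Benjamini-Hochberg adjusted p of 0.01. Thus 7 of 50 genes (14%) were called, against 23.7% of all 13498 genes tested and 26.8% of the 10156 genes with a mean level in the same range. By direction, 4 genes rose and 3 fell, against 12.1% and 11.6% of all genes tested.

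The differences were small as well as few. The median log2 fold change was 0.01 over the 50 genes and -0.01 over all genes tested, and the median absolute log2 fold change was 0.19 against 0.30. Log2 fold changes ran from -0.86 to 0.58, that is from 0.550-fold to 1.49-fold, with 28 above and 22 below 0. The 95% interval lay within 2-fold in either direction for 47 of the 50 genes, and within 1.5-fold for 37. The 3 whose interval reached 2-fold were Cdt1, Gins2 and Ccne1. Normalized counts of the groups did not overlap for 20 genes (40%), of which 10 were higher and 10 lower with EVs, against 49.6% of all genes (24.8% higher and 24.7% lower). No gene reached both an adjusted p of 0.01 and a 2-fold change, a rule that 9.45% of all genes met. That count of 0 stands beside 15 genes at an unadjusted p under 0.05 in edgeR, where 6008 of all 13498 genes tested lay under it. DESeq2 and limma also called 7 genes at the adjusted threshold (26.4% and 24.7% of all genes they tested). At an adjusted p of 0.05, 11 of the 50 genes were called (4 higher and 7 lower), against 35.9% of all genes, the added ones being Cdc45, Gins2, E2f1 and Kif20a.

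**Figure D1:**
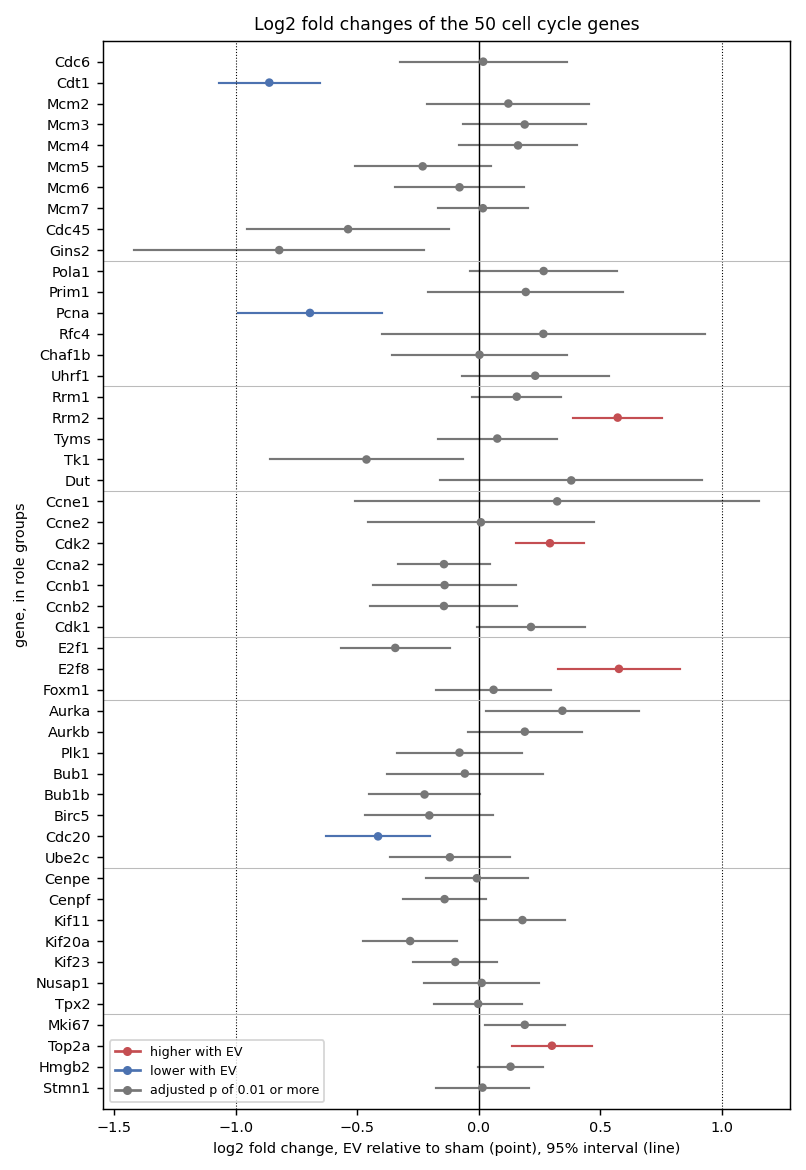
Log2 fold change of each of the 50 genes in EV- relative to sham-treated eosinophils (x axis; points, with 95% intervals as lines), in role groups (y axis). Red marks the 4 genes called higher, blue the 3 called lower and grey the 43 not called, and dotted lines mark 2-fold changes.

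The call count depended on single libraries, and the split of calls by direction depended on scaling. Leaving out sham 1 kept it at 7 (25.6% of all genes called), and leaving out sham 2 gave 5 (19.8%). Without sham 3, EV 1, EV 2 or EV 3 the counts were 2, 3, 3 and 3, beside 18.5%, 17.2%, 15.4% and 15% of all genes. Cdt1 and Rrm2 were called in each of the 6 fits with a library left out. When only library totals set the scale, 6 genes were called (1 higher and 5 lower), beside 25% of all genes (7.68% higher and 17.4% lower), a scaling that moved the median log2 fold change of all genes by -0.149.

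Origin licensing and firing genes (10 measured) had 1 gene lower, none higher and 9 not called. Cdt1, which loads the Mcm helicase onto origins and is destroyed once S phase begins, had 897, 934 and 940.5 normalized counts in the sham-treated replicates 1, 2 and 3 and 497, 495 and 533 in the EV-treated ones. All EV-treated libraries lay far below all sham-treated ones, and the values within each group were close. The edgeR quasi-likelihood test gave a log2 fold change of -0.86 ± 0.093 (SE, n = 3 per group; 95% interval -1.07 to -0.65; adjusted p = 5.9e-05). Its call held in each of 13 alternative analyses, with log2 fold changes of -1.01 to -0.84.

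None of the helicase subunits was called. Mcm6, the most abundant gene of the group, had 1451, 1684 and 2047 normalized counts in sham-treated and 1744, 1650.0 and 1506 in EV-treated eosinophils. The EV-treated values all fell inside the wide sham-treated range, with a log2 fold change of -0.08 ± 0.12 (SE) in edgeR's quasi-likelihood test (adjusted p = 0.649). Mcm2, Mcm3, Mcm4 and Mcm7 had log2 fold changes of 0.12, 0.19, 0.16 and 0.02, and none passed. Mcm5 had 1225, 1675 and 1782 normalized counts in sham-treated and 1363, 1288 and 1333 in EV-treated eosinophils, which differed by -0.23 on the log2 scale (edgeR adjusted p = 0.186). The sham 1 library was the low one, and without it the Mcm5 value was -0.37 (adjusted p = 0.00307). No other fit with a library left out called Mcm5. Cdc6, the loader that works with Cdt1, was level across libraries, with 223, 244 and 242 normalized counts in sham-treated and 234, 234 and 249 in EV-treated eosinophils.

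Cdc45 and Gins2, parts of the helicase that moves with the fork, had lower mean levels with EVs but missed the threshold. Cdc45 had 697, 412 and 629 normalized counts in sham-treated and 432, 367 and 401 in EV-treated eosinophils. Here the groups overlapped through sham 2, and the log2 fold change of -0.54 (edgeR adjusted p = 0.0464) became -0.73 (adjusted p = 0.00225) when that library was left out. No other fit with a library left out called Cdc45. Gins2 had 168, 196 and 114 against 74.9, 96 and 99.2, with no overlap, and its log2 fold change was -0.82 with a wide 95% interval of -1.42 to -0.23 (edgeR adjusted p = 0.0361). Of its transcript's 31-base words, 66.2% also occurred in transcripts of Gse1, so its counts are uncertain.

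DNA synthesis and chromatin copying genes (6 measured) had 1 gene lower, none higher and 5 not called. Pcna, the sliding clamp that holds DNA polymerase on its template, had 2849, 4282 and 4162 normalized counts in sham-treated and 2358, 2374 and 2238 in EV-treated eosinophils. EV-treated libraries were tightly grouped and below each sham-treated library, among which sham 1 was well under the other two. The edgeR quasi-likelihood test gave a log2 fold change of -0.69 ± 0.13 (SE, n = 3 per group; 95% interval -0.99 to -0.40; adjusted p = 0.00251). Leaving out sham 2, sham 3, EV 2 or EV 3 ended the call (adjusted p up to 0.0167), with log2 fold changes of -0.85 to -0.59 over the 6 fits.

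The 7 macrophage markers that fell were likewise lowest in sham 1 among the sham-treated libraries, as with C1qb, a complement subunit made by macrophages, at 3128, 6296 and 5701 normalized counts in sham-treated and 498, 1065 and 1134 in EV-treated eosinophils. Among the EV-treated libraries these markers were lowest in EV 1, except Cx3cr1, which had 0 counts in all 3. Pcna was lowest in EV 3. The part of these markers in the Pcna difference was not tested. Pcna also shared 23.3% of its 31-base words with the pseudogene Pcna-ps2, between which reads could be split. The remaining genes of the group did not pass. Pola1, the catalytic subunit of the polymerase that extends primers, had 359, 430.2 and 430.1 normalized counts in sham-treated and 535, 483 and 447 in EV-treated eosinophils. Its groups were just apart, with a log2 fold change of 0.27 (edgeR adjusted p = 0.158), and Prim1, the primase that starts those primers, had 0.19. Rfc4, from the complex that loads the clamp, had 0.27. Chaf1b, a histone chaperone of new DNA, had 0.00. Uhrf1, which directs methylation of the new strand, had 869, 1146 and 1335 against 1349.7, 1319 and 1259, with a log2 fold change of 0.23 and sham 1 again the lowest library.

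Nucleotide supply genes (5 measured) had 1 gene higher, none lower and 4 not called. Rrm2, the regulated subunit of ribonucleotide reductase, which makes the building blocks of DNA, had 1208, 1337 and 1175 normalized counts in sham-treated and 1980.1, 1781 and 1767 in EV-treated eosinophils. The groups were well apart, and EV 1 was the highest library. The edgeR quasi-likelihood test gave a log2 fold change of 0.57 ± 0.082 (SE, n = 3 per group; 95% interval 0.39 to 0.75; adjusted p = 0.000394), and the call held in each of 13 alternatives with log2 fold changes of 0.42 to 0.63. Rrm1, the partner subunit, had 2627, 2814 and 2449.6 against 3219, 2733 and 2843. Its groups overlapped, and its log2 fold change of 0.16 ± 0.082 (SE) did not pass (edgeR adjusted p = 0.172).

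Among the enzymes of thymidine nucleotides, Tk1, thymidine kinase of the salvage route, had 391, 391 and 515 normalized counts in sham-treated and 368, 256 and 318 in EV-treated eosinophils. The groups did not overlap, but the log2 fold change of -0.46 missed the threshold (edgeR adjusted p = 0.0697). Tyms, thymidylate synthase, had 1458, 1869 and 1677 against 1990.1, 1689 and 1592, and its value of 0.08 on the log2 scale did not pass (edgeR adjusted p = 0.639). Dut, which removes dUTP, had 196, 381 and 399.8 against 435, 381 and 451 and a log2 fold change of 0.38 (edgeR adjusted p = 0.257), with sham 1 far below the other 5 libraries.

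**Figure D2:**
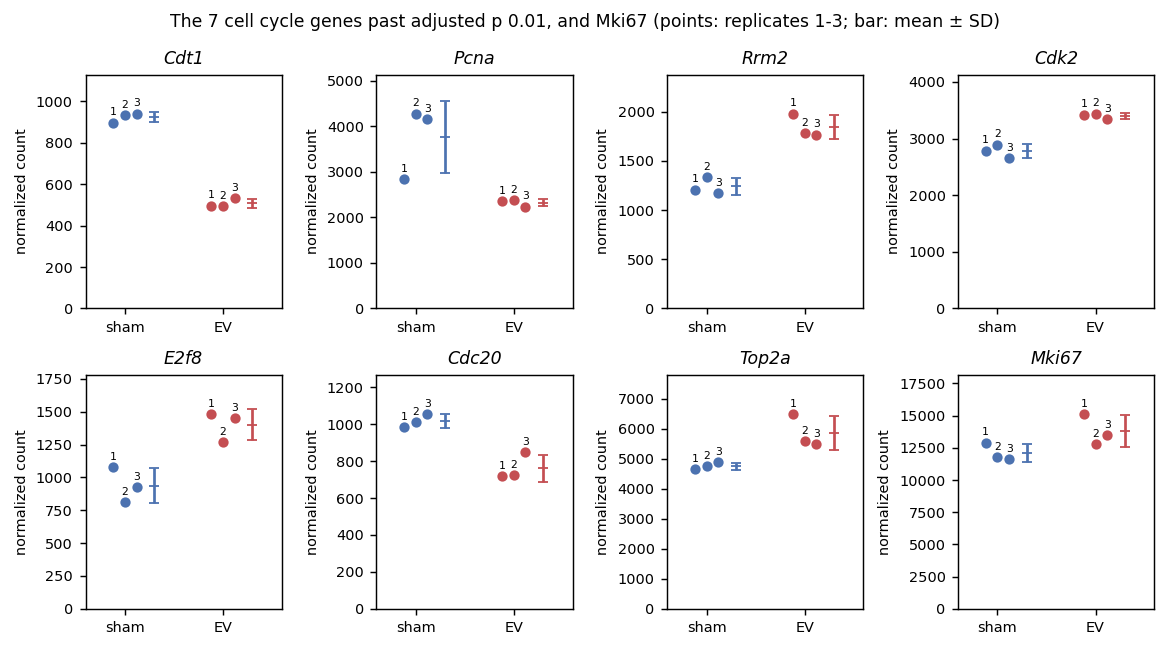
Normalized counts (y axis, from 0) of the 7 called genes and of Mki67 in sham-treated (blue) and EV-treated (red) eosinophils, with 1 point per replicate and bars for the mean ± SD of 3 replicates. Groups are separate for the 7 called genes, while for Mki67 the lowest EV-treated value (12779.8) lies under the highest sham-treated one (12904).

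Cyclins and cyclin-dependent kinases (7 measured) had 1 gene higher, none lower and 6 not called. Cdk2, the kinase of the G1/S transition and S phase, had 2788, 2895 and 2652 normalized counts in sham-treated and 3424, 3442 and 3345 in EV-treated eosinophils. The difference was small but the libraries of each group lay close together, and the edgeR quasi-likelihood test gave a log2 fold change of 0.29 ± 0.062 (SE, n = 3 per group; 95% interval 0.15 to 0.43; adjusted p = 0.00432). The call was lost without sham 3, EV 1, EV 2 or EV 3 (log2 fold changes of 0.27 to 0.32 over the 6 fits). It was also lost with upper quartile scaling and when only library totals set the scale, where the value was 0.14 (adjusted p = 0.102).

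The partners of Cdk2 did not pass. Ccne1, cyclin E1, was among the least abundant genes and varied most in sham-treated cells, with 60.4, 105 and 191 normalized counts against 159.8, 119 and 165 in EV-treated cells and a 95% interval of -0.51 to 1.15 for its log2 fold change. Ccne2 had a log2 fold change of 0.01. Cdk1, the kinase that triggers mitosis, had 606, 639.7 and 614 normalized counts in sham-treated and 740.3, 748 and 669 in EV-treated eosinophils. These groups did not overlap, yet the log2 fold change of 0.21 did not pass (edgeR adjusted p = 0.122). The mitotic cyclins Ccna2, Ccnb1 and Ccnb2 each had a log2 fold change of -0.14, with overlapping groups. For Ccnb1, cyclin B1, the libraries had 973, 737 and 1024 against 901, 753 and 829 normalized counts, and 27.8% of its 31-base words were shared with other genes.

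Cell cycle transcription factors (3 measured) differed among themselves. E2f8, an atypical E2F that represses transcription late in S phase, had 1077, 813 and 925 normalized counts in sham-treated and 1484, 1269 and 1451 in EV-treated eosinophils. All EV-treated libraries exceeded all sham-treated ones, and the edgeR quasi-likelihood test gave a log2 fold change of 0.58 ± 0.11 (SE, n = 3 per group; 95% interval 0.32 to 0.83; adjusted p = 0.00281). That call was lost without sham 3, EV 1 or EV 3 (log2 fold changes of 0.48 to 0.70 over the 6 fits), and with library totals alone (0.43, adjusted p = 0.0118).

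E2f1, an activator E2F of the G1/S transition, had 819, 777 and 761 normalized counts in sham-treated and 647, 567 and 643 in EV-treated eosinophils. Its groups did not overlap either, in the opposite order to E2f8, with a log2 fold change of -0.34 that missed the threshold (edgeR adjusted p = 0.0225) and passed it with library totals alone (-0.49, adjusted p = 0.00329). Foxm1, the activator of G2/M genes, had 751, 772 and 649 against 816, 725 and 725 and a log2 fold change of 0.06.

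Mitotic kinases, checkpoint and APC/C genes (8 measured) had 1 gene lower, none higher and 7 not called. Cdc20, the activator of the anaphase-promoting complex (APC/C) that starts chromosome separation, had 985, 1011 and 1057 normalized counts in sham-treated and 717, 724 and 848 in EV-treated eosinophils. The sham-treated libraries were close together and all above the EV-treated ones, of which EV 3 was the highest. The edgeR quasi-likelihood test gave a log2 fold change of -0.41 ± 0.096 (SE, n = 3 per group; 95% interval -0.63 to -0.20; adjusted p = 0.0073). Leaving out sham 2, sham 3, EV 1 or EV 2 ended the call (adjusted p up to 0.0487), with log2 fold changes of -0.49 to -0.36 over the 6 fits. Of its 31-base words, 23.4% occurred in transcripts of Gm7856, so part of its reads could have been assigned there.

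Other genes of the spindle checkpoint and the mitotic kinases did not pass and had values on both sides of 0. Bub1b, the checkpoint kinase-like protein that restrains Cdc20, had 943, 868 and 1089.9 normalized counts in sham-treated and 808, 867 and 809 in EV-treated eosinophils. Its groups were separate by a narrow gap, at a log2 fold change of -0.22 ± 0.10 (SE; edgeR adjusted p = 0.121). Aurka, the kinase of the spindle poles, had 349.6, 309 and 380.3 against 486, 403 and 431, without overlap, and a log2 fold change of 0.34 (edgeR adjusted p = 0.087). Aurkb and Birc5 (survivin) are partners in 1 complex at the centromere, and their values differed in sign. Aurkb had 560.4, 534 and 558 against 670.4, 589 and 626, Birc5 had 511, 517 and 502 against 482, 412 and 435, and the log2 fold changes were 0.19 and -0.20, both without overlap of the groups and not called. Plk1, Bub1 and Ube2c, the ubiquitin-conjugating enzyme of the APC/C, had -0.08, -0.06 and -0.12.

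Kinetochore, motor and spindle genes (7 measured) had none called by edgeR, nor at 0.01 by DESeq2 or limma. In edgeR, 2 had an unadjusted p under 0.05, beside 6008 of all 13498 genes tested. Cenpf, a large kinetochore protein and the most abundant of them, had 2109, 1829 and 1923 normalized counts in sham-treated and 1871, 1701 and 1748 in EV-treated eosinophils. The groups overlapped, with a log2 fold change of -0.14 ± 0.077 (SE; edgeR adjusted p = 0.19). The motors went different ways in value. Kif11, which pushes the spindle poles apart, had 1532, 1543 and 1498 against 1897, 1604 and 1679.8, and Kif20a, a motor of cytokinesis, had 847, 891 and 889 against 705, 704 and 750.3. Neither pair of groups overlapped, and the log2 fold changes were 0.18 (edgeR adjusted p = 0.107) and -0.28 (adjusted p = 0.0289). For Kif20a the call was made with library totals alone (-0.43, adjusted p = 0.00332), and 26.7% of its 31-base words were shared, chiefly with Cdc23. Cenpe, Kif23, Nusap1 and Tpx2 had log2 fold changes of -0.01, -0.10, 0.01 and 0.00.

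Chromatin and proliferation markers (4 measured) had 1 gene higher, none lower and 3 not called. Mki67, which encodes the Ki-67 antigen that coats mitotic chromosomes, was the most abundant of the 50 genes by normalized count, unadjusted for transcript length. It had 12904, 11789.7 and 11630.5 normalized counts in sham-treated and 15142, 12779.8 and 13499.5 in EV-treated eosinophils. EV 1 was the highest library, EV 2 lay below sham 1, and the log2 fold change of 0.19 ± 0.073 (SE; 95% interval 0.03 to 0.35) did not pass (edgeR adjusted p = 0.0709).

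Top2a, topoisomerase II, which untangles replicated chromosomes, had 4645, 4748 and 4878 normalized counts in sham-treated and 6499.8, 5584 and 5496 in EV-treated eosinophils. Here too EV 1 was highest, and the groups did not overlap. The edgeR quasi-likelihood test gave a log2 fold change of 0.30 ± 0.074 (SE, n = 3 per group; 95% interval 0.14 to 0.47; adjusted p = 0.00984), just inside the threshold. The call was lost when any 1 of the 6 libraries was left out (log2 fold changes of 0.23 to 0.35), with upper quartile scaling, and with library totals alone (0.15, adjusted p = 0.145). Hmgb2, a chromatin protein, had 5051, 4630.1 and 4592 against 5240.0, 5258 and 5132. Its groups did not overlap, at a log2 fold change of 0.13 that did not pass (edgeR adjusted p = 0.125), and Stmn1, which destabilizes microtubules, had 0.02.

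**Figure D3:**
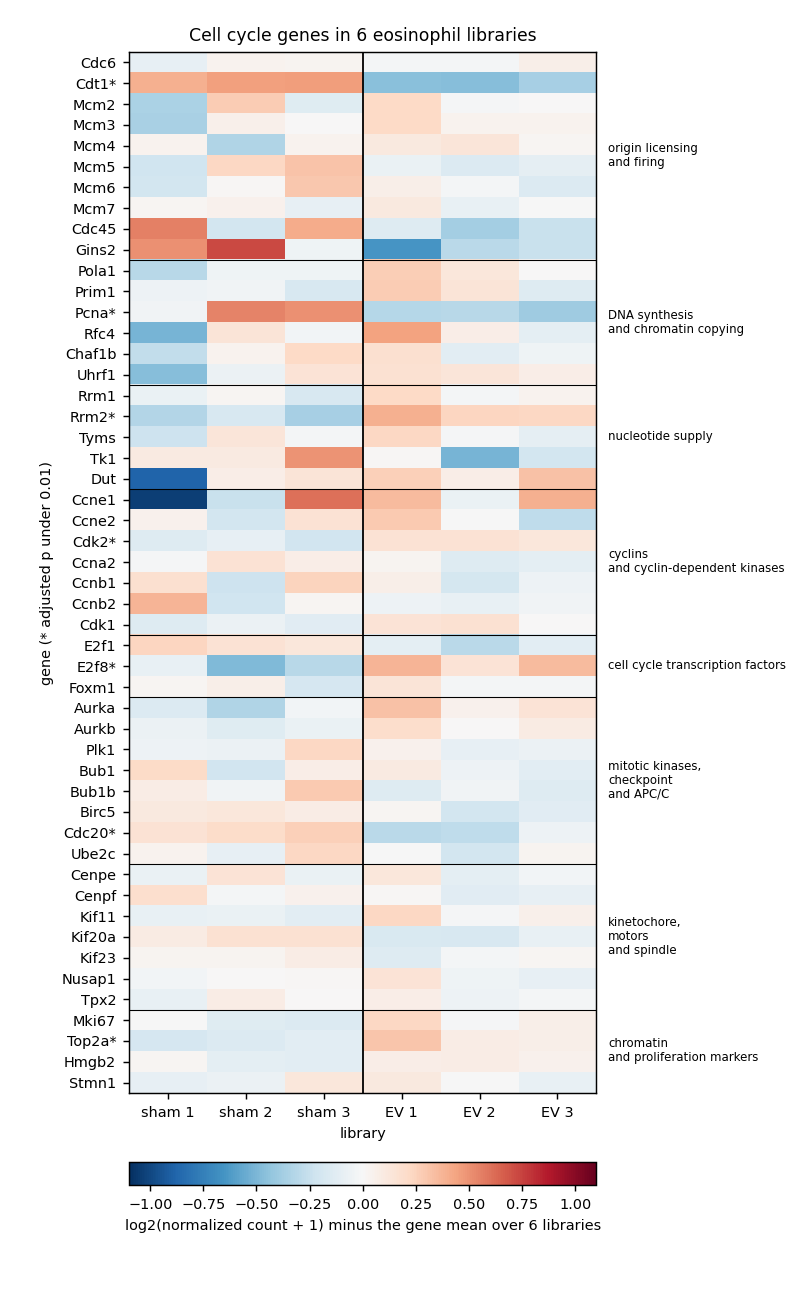
Level of the 50 genes (rows, in role groups) in the 6 libraries (columns), as log2(normalized count + 1) minus each gene's mean over the libraries. Red is above and blue below the gene's mean, asterisks mark the 7 called genes, and most rows show no shared step at the line between sham and EV libraries.

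By phase, 5 of 26 S phase genes were called (3 higher, 2 lower; 19.2%) and 2 of 24 G2/M phase genes (1 higher, 1 lower; 8.33%), beside 23.7% of all genes. The median log2 fold change was 0.10 for S phase and -0.03 for G2/M phase genes. Intervals were narrower for the G2/M genes, of which all 24 lay within 2-fold and 22 within 1.5-fold. Without any 1 library the S phase count ranged from 2 (without sham 3 or EV 3) to 6 (without sham 1), and 3 were left without EV 1 or EV 2. The G2/M count was 1 without sham 1 or EV 3 and 0 without sham 2, sham 3, EV 1 or EV 2. Whether the phases differed in their response was not tested.

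Counts of the 50 genes were also summed in each library. Per 1000000 counts of the library total, they summed to 2274, 2373 and 2375 in sham-treated replicates 1, 2 and 3 and to 2354, 2121 and 2109.9 in EV-treated ones, or 2341 ± 57.5 against 2195 ± 138 (SD, n = 3 per group). EV 2 and EV 3 were the lowest, and EV 1 lay within the sham-treated range. With library sizes scaled by TMM the same sums were 2179, 2233 and 2259.9 against 2459, 2219.6 and 2254, or 2224 ± 41.1 against 2311 ± 129, so the order of the means depended on the scaling. S phase genes on the TMM scale summed to 866 ± 67.3 against 872 ± 45.1, and G2/M phase genes to 1358 ± 32.1 against 1439 ± 84.7. Mki67 and Top2a carried the higher G2/M mean, and the other 22 genes summed to 812 ± 17.9 against 801 ± 28.4. No test was made on these sums.

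**Figure D4:**
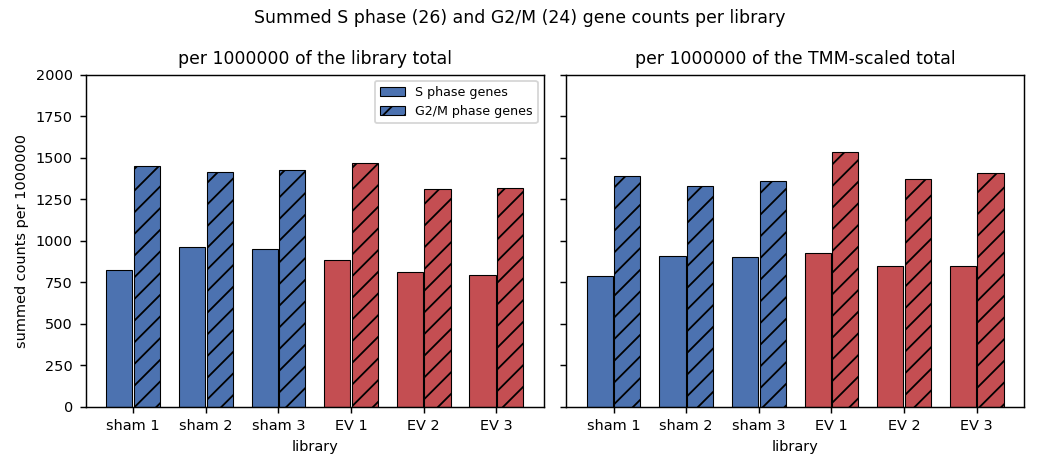
Summed counts of the S phase genes (plain bars) and G2/M phase genes (hatched bars) in each sham (blue) and EV (red) library, per 1000000 counts of the library total (left) or of the TMM-scaled total (right). Within each panel the bars of EV and sham libraries are of similar height, and which group has the higher mean for all 50 genes together changes between panels.

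One EV-treated library stood above the other two in most of these genes. EV 1 was the highest of its group for 34 of the 50 genes, and EV 2 was the lowest for 27. In the sham-treated group the lowest values were in sham 1 for 23 genes. Without EV 1 the median log2 fold change of the 50 genes was -0.03, and without sham 1 it was -0.00182, against 0.01 with all libraries.

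Other cell cycle genes, listed by function, gave the setting for these values. Among 41 further genes of the replication machinery, 1 rose and 2 fell (7.32%, against 23.7% of all genes). Rfc2, of the clamp loader, had a log2 fold change of 0.34, Rnaseh2a, which removes RNA from DNA, had -0.62, and Dnmt1, which copies DNA methylation, had -0.44 (edgeR adjusted p = 0.000254). Of 64 further mitotic genes, 1 rose and 3 fell (6.25%), with Spc24, a kinetochore subunit, at 0.64 and the CDK partner Cks2 and phosphatase Cdc25b at -0.63 and -0.41. Of 21 genes of homologous recombination and the replication checkpoint, 1 rose (4.76%), the helicase Blm at 0.64. Together 8 of 126 such genes were called (6.35%), and their median log2 fold change was 0.08. Dnmt1, Spc24 and Blm kept their call in each of 6 fits with a library left out. Rfc2 lost it without EV 3 (adjusted p = 0.0146) and with library totals alone (adjusted p = 0.034). With no filter on low counts, Rnaseh2a and Cdc25b lost it (adjusted p = 0.0102 and 0.0124). In the fits with a library left out, Rnaseh2a, Cdc25b and Cks2 each kept it in 1 of 6 fits, being lost without sham 2, any EV-treated library and either sham 3 or, for Cks2, sham 1 (adjusted p up to 0.0382, 0.0515 and 0.0335). The counts over these fits ran from 1 (without EV 3) to 4 (without sham 3) for the replication list and from 1 (without sham 2, EV 1, EV 2 or EV 3) to 3 for the mitotic list.

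Genes that regulate entry into the cycle were held in 3 more lists. Of 17 RB, E2F and DREAM regulators, 3 rose and none fell (17.6%). E2f2, an activator E2F, had 2817, 2494 and 2437 normalized counts in sham-treated and 5155, 4795 and 5094 in EV-treated eosinophils, with all EV-treated libraries well above, and a log2 fold change of 0.96 ± 0.073 (SE; edgeR adjusted p = 5.8e-06). Tfdp1, the dimer partner of E2Fs, and Rbl2 (p130), a pocket protein of quiescent cells, had 0.33 and 0.28. E2f2 was called in each fit with a library left out, whereas Tfdp1 and Rbl2 were called only without sham 1 among these fits (adjusted p up to 0.0233 and 0.0438), and neither was called with upper quartile scaling or library totals alone.

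Of 12 G1 cyclins and CDK inhibitors, 5 rose and 3 fell (66.7%). Cdkn1a (p21), a CDK inhibitor, had 1602, 1919 and 1784 normalized counts in sham-treated and 4997, 4809 and 5165 in EV-treated eosinophils, 2.82-fold higher (95% interval of the log2 fold change 1.32 to 1.67; edgeR adjusted p = 5.5e-07). Ccnd1 (cyclin D1) had 779, 1172 and 1233 against 226, 301 and 307, and Cdkn1c (p57), another CDK inhibitor, had 171, 142 and 139 against 16, 24 and 23.5. Both were lower in each EV-treated than in any sham-treated library, with log2 fold changes of -1.93 and -2.82. Ccnd1 was lowest in sham 1 and in EV 1 of their groups. The macrophage markers that fell had this order too, except Cx3cr1, which had 0 counts in every EV-treated library. The part of these markers in the Ccnd1 difference was not tested. Ccnd3 (cyclin D3) had a mean of 12367 normalized counts over all libraries, against 670 for Ccnd1, and a log2 fold change of 1.19. The kinases Cdk6 and Cdk4 had 1.26 and -0.69. The CDK inhibitors Cdkn2a and Cdkn2b also rose, with log2 fold changes of 1.04 and 1.27. On the inhibitor side Cdkn1c alone was called lower, while Ccnd2, Cdkn1b, Cdkn2c and Cdkn2d were not called.

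Of 15 p53 target genes, a list that also holds Cdkn1a, 9 rose and none fell (60%), with a median log2 fold change of 0.60. Values were above 0 for 12 and below 0 for 3, none of these 3 called. They were Bax (-0.06), Bbc3 (-0.03) and Sesn1 (-0.34, edgeR adjusted p = 0.0237). Sesn2, a stress-induced regulator of growth signalling, went from 1811 ± 162 to 3412 ± 154 normalized counts (SD, n = 3 per group), a log2 fold change of 0.91. Ccng1 (cyclin G1) went from 3441 ± 204 to 5889 ± 150.5, a log2 fold change of 0.78 (edgeR adjusted p = 9.77e-06).

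**Figure D5:**
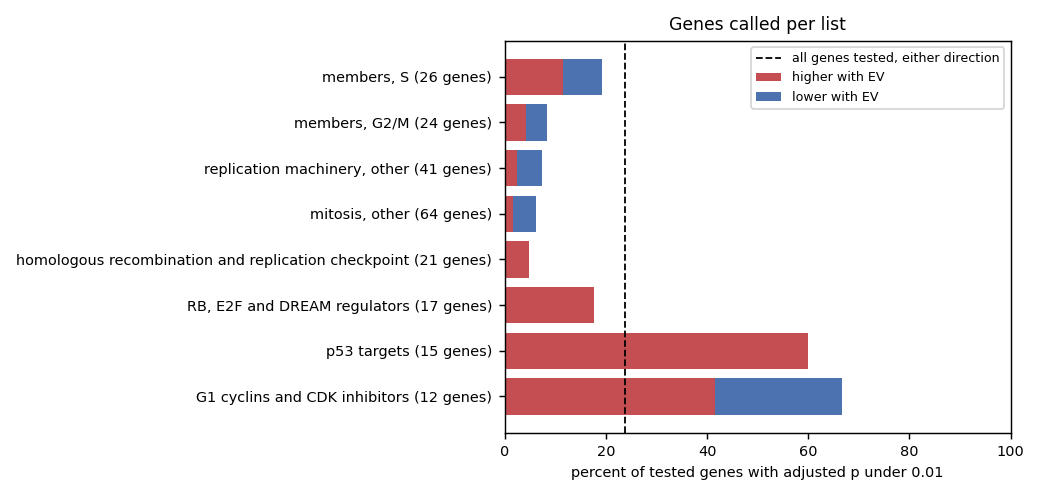
Percent of tested genes with an adjusted p under 0.01 (x axis) in each list (y axis, with the number of genes tested), split into genes higher (red) and lower (blue) with EV; the dashed line marks the 23.7% of all genes called. The S and G2/M genes and the replication, mitosis, recombination and RB/E2F/DREAM lists lie left of the line, and the p53 target and G1 lists lie right of it.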

How the data were processed

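Poly(A) RNA of 3 sham-treated and 3 EV-treated eosinophil samples was sequenced. Groups and replicate numbers came from the sample titles. Reads passed through FastQC, Cutadapt and Salmon, and the authors compared groups with DESeq2. The submitters' processing notes name the build mm10, and tool versions, annotation and strandedness are not given in the sources used here. The authors deposited estimated counts, rounded here to whole numbers, and normalized counts, a signal that equals the rounded count plus 1 over a size factor. A deposited table of the authors' own comparison (fold changes, p-values and mean counts) was not used.

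Counts were tested with edgeR 4.0.16 in R 4.3.3 (filterByExpr, TMM scaling, quasi-likelihood test, Benjamini-Hochberg adjustment over 13498 genes, adjusted p under 0.01), on all 6 samples without covariates. The study called a gene changed at this adjusted p only with at least a 2-fold change, a rule applied here as an alternative. To give the normalized counts of the text, rounded counts were divided by each library's TMM-scaled size, itself divided by the geometric mean size. SEs and 95% intervals derive from the test's F statistic. Alternatives used DESeq2 1.42.0, limma 3.58.1 on log2(deposited normalized count + 1), other scalings and thresholds, no filter, a replicate block and each sample left out. The fits were tested on simulated data.

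Values in every library are given by rule for the called genes, up to 3 per role group with mean normalized counts of at least 20, and for the most abundant gene of each group. The rule also named up to 3 called genes of each further list, and other genes are given to account for all 50. The members, role groups, further lists and marker lists were chosen with earlier results of these data known, so no test was made on a list. Promoters came from RefSeq, and shared sequence was counted as 31-base words in GENCODE vM21 transcripts. No sample was left out.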

Additional observations from a re-analysis of the deposited data

How the results depend on the processing

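The counts of called genes, the median log2 fold change of the 50 genes and the single genes were recomputed with DESeq2 size factors in edgeR, library totals only, upper quartile scaling, no filter, DESeq2, limma, a replicate block, other thresholds, and each of the 6 samples left out. The count of called genes among the 50 stayed within 1.5 times of 7, except at an adjusted p of 0.05, where it was 11 (35.9% of all genes), with an added 2-fold limit, where it was 0, and over the leave-one-out fits, where it ranged from 2 to 7. For S phase genes these values were 8, 0 and 2 to 6, and for G2/M phase genes the limit gave 0, upper quartile scaling 1 and the leave-one-out fits 0 to 1. The 27 called of 169 other cell cycle genes (16%, against 23.7% of all genes) became 7 with the 2-fold limit, which 9.45% of all genes met. Library totals alone moved the median log2 fold change of all genes by -0.149 and that of the 50 genes to -0.13, so that relative to all genes it was 0.028 under both scalings, and 30.7% rather than 50.9% of all calls were higher. TMM scaling moved the sums per 1000000 counts to 2179, 2233 and 2259.9 in sham 1 to 3 and to 2254 in EV 3. Directions of called genes did not turn under the 13 alternatives. With the replicate block, the same 7 of the 50 genes were called (3575 against 3204 of all genes). The shared numbers are not stated to pair the samples, same-numbered samples correlated at 0.117, 0.0846 and 0.0371 in their deviations from the group means, and EV 3 correlated best with sham 2 (0.0487), so they were not treated as pairs.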

Other observations

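Among the 7 called genes a CHR word was found in 42.9% of promoters, CCAAT in 85.7% and an E2F word in 14.3%, against 23.5%, 70.6% and 29.4% of the 34 promoters of genes not called. With 7 promoters these shares were not tested. The 3 genes that fell (Cdt1, Pcna and Cdc20) held different words in the printed windows, with none in Cdt1, a CCAAT box alone in Pcna, and CHR and CCAAT words in Cdc20.

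Shared sequence could affect some counts. The median share of a gene's 31-base transcript words that also occur in transcripts of other genes was 4.69% over the 50 genes, with 27 genes under 5% and 10 over 20%. The latter were Gins2, Mcm7, Ccnb1, Cdc20, Kif20a, Ube2c, Uhrf1, Pcna, Stmn1 and Hmgb2, of which Pcna and Cdc20 were called. For Cdt1 the share was 0.438%, and for Rrm2 it was 12.8%.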
